A study of Mus musculus with 3 samples.

Results

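Efemp1 and its relatives form the fibulin family of secreted matrix glycoproteins, and 6 genes were listed here by symbol (Efemp1, Efemp2, Fbln1, Fbln2, Fbln5 and Fbln7). Of these, 5 had a probe set of their own among the 19938 genes that could be named on the array, each with 1 probe set. Efemp2 was not analysed here. The family was chosen by its measured values, since earlier results of the same data had Efemp1 as the gene furthest apart between the columns of high and medium miR-17~92, so the levels below are a description, and no test was made.

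The columns come from CT26, a mouse colon carcinoma line kept in serum-containing medium. All cells had taken up the PIG vector by transfection, survived puromycin, been sorted as GFP+ and been cloned by serial dilution. The groups were miR-Ctrl (here Ctrl), whose vector carried a control microRNA, miR-17~92Med (Med), with a medium level of the miR-17~92 cluster, and miR-17~92Hi (Hi), with a high level. The design text names 3 subclones per group, while each group had 1 column of deposited log2 values, and the sources used here do not give how subclones entered a column. A single column has no replicate, so no difference below carries a measured error or a p-value, and a clone's own character and the dose of the cluster cannot be told apart. In such bulk RNA, fewer cells that express a gene and less of its RNA per cell cannot be told apart either.

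Fibulins carry tandem calcium-binding EGF modules and end in a shared fibulin module. They bridge elastin, fibrillin microfibrils, fibronectin, nidogens and proteoglycans, and several are needed for elastic fibres to assemble. Efemp1 (fibulin-3) lies in basement membranes and connective tissue and binds the metalloprotease inhibitor encoded by Timp3. Fibulins are made mainly by fibroblasts, smooth muscle and other mesenchymal cells, and have been described both as promoting and as restraining tumour growth. The cluster that separates the groups yields the mature microRNAs printed next from RefSeq (build GRCm38.p6, mouse chromosome 14), shown because they are the agent the cells received. Capitals mark the seed, bases 2 to 8, which pairs with targets. miR-17-5p and miR-20a-5p share a seed, as do miR-19a-3p and miR-19b-3p, and a search of the fibulin transcripts for their sites was not made here.
miR-17-5p: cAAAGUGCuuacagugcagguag
miR-18a-5p: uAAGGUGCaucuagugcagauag
miR-19a-3p: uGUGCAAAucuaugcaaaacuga
miR-20a-5p: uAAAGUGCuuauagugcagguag
miR-19b-3p: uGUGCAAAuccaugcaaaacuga
miR-92a-3p: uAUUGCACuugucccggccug

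Efemp1 stood at 6.56 in Ctrl, with 11.52 in Med and 5.70 in Hi on the deposited log2 scale. Med alone was high, and Ctrl and Hi lay within the range of genes that this line is not known to use. That background range was bounded by the 95th percentile of 1178 olfactory and vomeronasal receptor genes, at 6.87 in the Ctrl column, 6.18 in Med and 6.20 in Hi. Among all named genes the Med level of Efemp1 was at percentile 98.6, against percentile 31.7 for its Ctrl level and 25.7 for its Hi level.

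The difference of Hi from Med was -5.82 for Efemp1, a 56.5-fold lower level on the linear scale. It ranked first by size among the 9969 genes that passed the expression filter (a mean over the 3 columns of at least 7.13, the median of all genes) and among all 19938. The difference in size that followed was 3.49, for the ligand gene Wnt1. Efemp1 passed the filter only through its Med value. Against Ctrl, Efemp1 was higher in Med by 4.96, or 31.0-fold, and ranked 44th from the highest of the filtered genes. Hi differed from Ctrl by -0.86, with both levels in the background range, and this difference passed 2-fold (-1.25) once the median of filtered genes was subtracted. A level in the background range has no known distance from the true one, so the sizes of these folds are those of the deposited scale only. Mir17hg, the host transcript of the cluster, was at 5.98 in Ctrl and 6.02 in both Med and Hi, all within the background range, and so gave no check of the labels.

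The promoter windows of RefSeq (250 bases before to 50 after a listed start, GRCm38.p6) are printed for Efemp1 and for Fbln2 and Fbln5, the other members that passed the filter, since their levels part from one another. The windows are chr11:28852955-28853254 on the plus strand, chr6:91212514-91212813 on the plus strand and chr12:101819070-101819369 on the minus strand. Capitals mark matches on either strand to the GC box (letters GGGCGG), the TATA box (letters TATAAA) or the CCAAT box (its name gives its letters). They also mark the E-box (letters CACGTG) and the letters TGANTCA, a loose AP-1-like pattern in which N is any base.
Efemp1: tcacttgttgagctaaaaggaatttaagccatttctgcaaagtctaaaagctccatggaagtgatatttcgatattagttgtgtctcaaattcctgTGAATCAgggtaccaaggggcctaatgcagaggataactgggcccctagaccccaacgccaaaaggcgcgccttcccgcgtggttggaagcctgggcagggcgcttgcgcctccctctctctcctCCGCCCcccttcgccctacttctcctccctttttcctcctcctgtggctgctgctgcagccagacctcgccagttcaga
Fbln2: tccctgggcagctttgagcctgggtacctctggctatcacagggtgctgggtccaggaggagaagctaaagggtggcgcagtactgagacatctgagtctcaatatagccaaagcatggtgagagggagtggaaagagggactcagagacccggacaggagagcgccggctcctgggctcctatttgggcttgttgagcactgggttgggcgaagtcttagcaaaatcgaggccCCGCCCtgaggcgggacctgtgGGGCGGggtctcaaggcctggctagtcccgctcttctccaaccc
Fbln5: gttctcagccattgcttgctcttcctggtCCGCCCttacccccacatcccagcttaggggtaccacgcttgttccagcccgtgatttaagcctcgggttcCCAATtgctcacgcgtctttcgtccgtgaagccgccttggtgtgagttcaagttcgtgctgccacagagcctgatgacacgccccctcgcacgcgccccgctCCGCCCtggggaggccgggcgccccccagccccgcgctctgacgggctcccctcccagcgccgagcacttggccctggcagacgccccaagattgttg
The Efemp1 window held 1 match to TGANTCA, with A at the place of N, and 1 GC box, and neither of the other windows shown held TGANTCA. Of 32851 windows of this length, 7.81% held TGANTCA and 35.7% held GGGCGG. The windows had 11 CpG dinucleotides in Efemp1, 10 in Fbln2 and 24 in Fbln5, against a median of 7 over all windows. RefSeq lists a second Fbln5 window, not shown, with 8 CpG and no GC box, and the one printed is the first in its table. A match describes letters in the window and shows no bound factor.

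**Figure D1:**
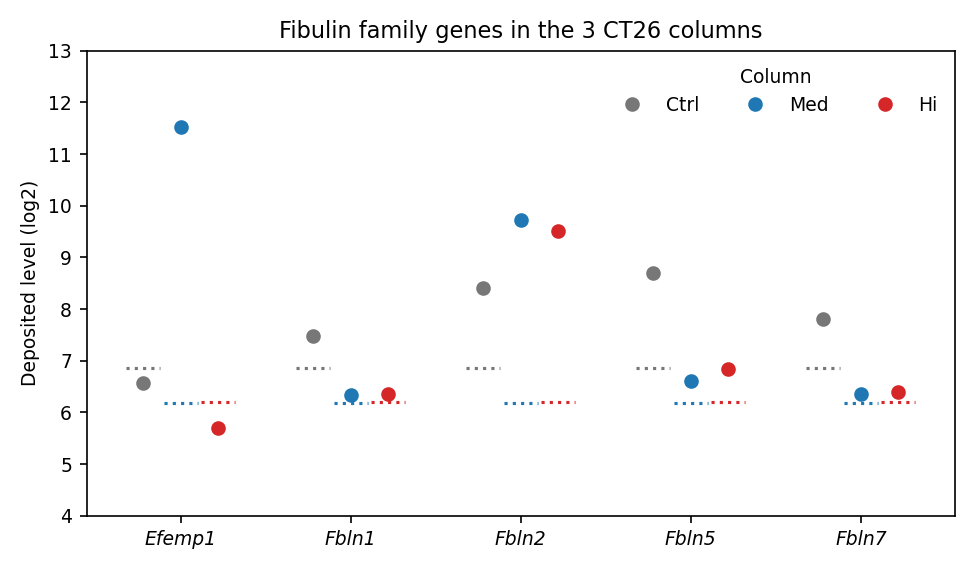
Deposited log2 level (vertical axis) of the 5 measured fibulin genes in the Ctrl, Med and Hi columns, 1 point per column; dotted marks show the 95th percentile of receptor genes in that column. Efemp1 reaches 11.52 in Med and lies below the mark in Ctrl and Hi, while Fbln2 lies above it in every column.

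Fbln2, a large fibulin that binds fibronectin, nidogens and lecticans, was the member above background by the widest margin in Hi. It stood at 8.41 in Ctrl, with 9.73 in Med and 9.51 in Hi. Both miR-17~92 columns were higher than Ctrl, by 1.32 in Med and 1.10 in Hi, and nearly level with each other (Hi minus Med -0.22). The differences from Ctrl fell under 2-fold with quantile normalization (0.57 in Med and 0.41 in Hi) and with the median of filtered genes subtracted (0.89 in Med and 0.72 in Hi).

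Fbln5, which binds elastin, Loxl1 and integrins, ran the other way, at 8.69 in the Ctrl column, 6.61 in Med and 6.83 in Hi. It was lower by 2.08 in Med and 1.86 in Hi than in Ctrl, at least 2-fold under every scaling tried. In Ctrl it was the highest of the 5 members, 1.83 above the background bound. In both miR-17~92 columns it stood little above the bound, by 0.44 in Med and 0.63 in Hi. It passed the filter only through its Ctrl value. For Med minus Ctrl it ranked 48th from the lowest of all 19938 genes.

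Fbln1, a fibronectin- and laminin-binding fibulin of basement membranes, was at 7.48 in Ctrl, with 6.34 in Med and 6.35 in Hi. Fbln7, a cell-adhesion fibulin first described in developing teeth, was at 7.80 in the Ctrl column, 6.36 in Med and 6.40 in Hi. Both were highest in Ctrl, and in Med and Hi both lay between 0.15 and 0.20 above the background bound. In Ctrl, where the bound was higher, Fbln1 lay 0.61 and Fbln7 0.93 above it. Neither gene passed the expression filter. Of the receptor genes that set the bound, 6.79% were 2-fold apart between Med and Ctrl and 6.28% between Hi and Ctrl. The differences of the 2 fibulins from Ctrl were -1.14 in Med and -1.13 in Hi for Fbln1, and -1.45 in Med and -1.40 in Hi for Fbln7. Those of Fbln1 were under 2-fold with centred columns (-0.84 in both).

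The members thus differed in which column was highest. That was Med for Efemp1 and Fbln2, and Ctrl for Fbln1, Fbln5 and Fbln7. In Med the order was Efemp1, Fbln2, Fbln5, Fbln7 and Fbln1, with the last 3 between 6.34 and 6.61, and in Hi it was Fbln2, Fbln5, Fbln7, Fbln1 and Efemp1. These orders set probe sets of unlike brightness side by side and are not orders of RNA amount. Between Hi and Med, 1 of the 5 members was at least 2-fold lower and 0 were higher, and the other 4 lay between -0.22 and 0.22. Of all 19938 genes, 0.512% were 2-fold lower and 0.406% higher in that comparison, which was used to choose the family. Against Ctrl, Med had 2 of the 5 that were 2-fold higher and 3 lower, beside 18.3% and 16.3% of all genes. Hi had 1 higher and 3 lower, beside 17.5% and 15.4%. Both comparisons use the same Ctrl column, and shares of this kind over 5 genes do not set the family apart from other genes.

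**Figure D2:**
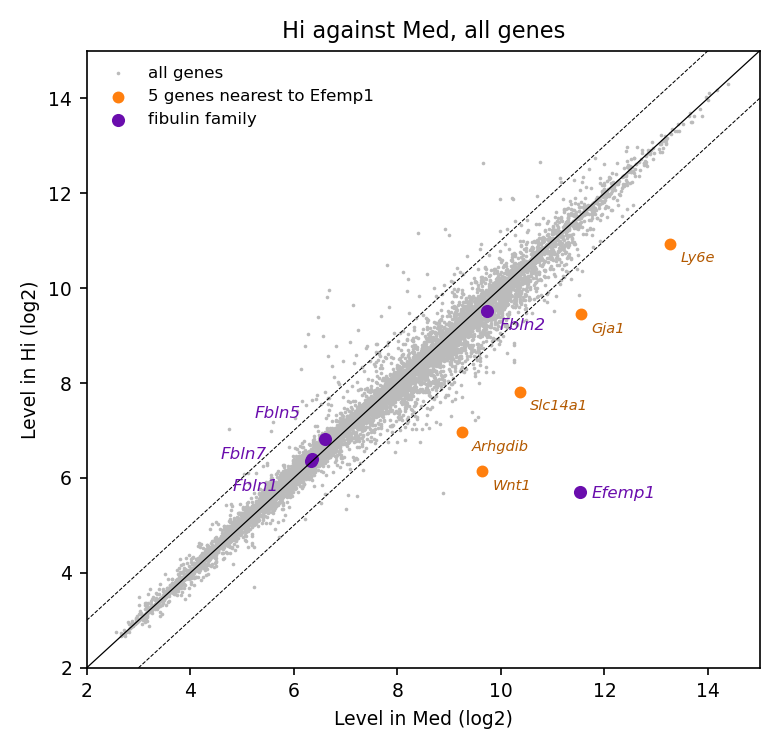
Level in Hi (vertical axis, log2) against level in Med (horizontal axis, log2), 1 point per gene over 19938 genes; the solid line marks equal levels and the dashed lines a 2-fold difference. Efemp1 lies 5.82 below the line, the other 4 fibulins lie within 0.22 of it, and the 5 genes nearest to Efemp1 in pattern are in orange.

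The scale of the columns and the levels of cell type markers are given here beside the comparisons with Ctrl. Median levels over the 35556 probe sets were 6.95 in Ctrl, with 6.65 in Med and 6.66 in Hi, so that centring the columns adds 0.30 to Med minus Ctrl and 0.29 to Hi minus Ctrl. Over filtered genes the median difference had the opposite sign to that of the column medians, 0.42 in Med and 0.39 in Hi. Of filtered genes 2-fold apart from Ctrl, 80.0% were higher in Med and 79.9% in Hi, against 52.9% and 53.1% without the filter, 57.0% and 57.9% with quantile normalization, 63.8% and 64.3% with the filtered median subtracted, and 89.9% and 90.7% with centred columns. Med and Hi held identical values in 43.7% of probe sets, but in none of the 5 fibulins. Of 8 markers of colon epithelium, Epcam, Vil1, Cdx2 and Krt20 were within the background range in every column, and Cdh1 was so in Ctrl. The keratins went different ways against Ctrl, with Krt18 higher in Med (3.44) and Hi (4.31), Krt8 lower (-1.64 in Med and -1.61 in Hi) and Krt19 at 0.00 in Med and 0.38 in Hi. The summed log2 level of the 8 was 56.9 in Ctrl, with 55.1 in Med and 56.4 in Hi. With centred columns it was 55.4 in Ctrl, with 55.9 in Med and 57.1 in Hi, so the highest column changed. Of 9 fibroblast and mesenchymal markers, Dcn and Lum were within the background range in every column. Pdgfra (2.53 in Med and 3.01 in Hi) and Vim (1.95 in Med and 1.69 in Hi) were higher than Ctrl. The others were lower than Ctrl. Col1a1 differed by -1.33 in Med and -1.19 in Hi, and Col1a2 by -1.31 in Med and -1.23 in Hi. Pdgfrb differed by -1.22 in Med and -1.24 in Hi, Thy1 by -1.16 in Med and -1.23 in Hi, and Col3a1 by -0.82 in both. The summed log2 level of the 9 was 70.3 in Ctrl, with 67.6 in Med and 68.1 in Hi, and with centred columns it was 68.6 in Ctrl, with 68.5 in Med and 68.9 in Hi. The part of these markers in the fibulin levels was not tested. The sums of 5 endothelial markers (35.0 in the Ctrl column, 30.6 in Med and 30.4 in Hi) and of 5 immune markers (31.8 in Ctrl, with 28.1 in Med and 28.2 in Hi) were highest in Ctrl, also with centred columns. In each column 2 of the 5 endothelial and 4 of the 5 immune markers were within the background range. The background bound was itself highest in Ctrl, at 6.87 against 6.18 in Med and 6.20 in Hi.

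Hmcn1 and Hmcn2 encode hemicentins, giant relatives that end in a fibulin module. Hmcn2 was at 8.17 in Ctrl and 7.63 in both Med and Hi. Hmcn1, averaged over 77 probe sets, was at 6.01 in the Ctrl column, 5.07 in Med and 5.09 in Hi. These mean Hmcn1 levels were within the background range. Single probe sets reached 8.29 in Ctrl, 6.84 in Med and 7.14 in Hi, above the bound of each column. The spreads given next over its probe sets are thus not of background values alone. Hi minus Med ran from -0.29 to 0.51 over them, with none 2-fold apart. Med minus Ctrl ran from -4.81 to 0.00, with 30 probe sets 2-fold lower and 0 higher, so single probe sets of 1 gene differed far more in the comparison with Ctrl than between Hi and Med. Each fibulin rests on a single probe set.

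The term partner genes is used here for all 65 listed genes other than the family. They are the hemicentins, elastic fibre and microfibril genes, binding partners, proteases, and other matrix genes with calcium-binding EGF repeats. Genes of the last kind, Thbs1 among them, were listed for that shared repeat. Of the 65, 62 were measured and 33 passed the filter. Between Hi and Med, 4 of the 33 were at least 2-fold higher and 0 lower (0.682% and 0.863% of all filtered genes). The median of the 33 was 0.00, as it was over all filtered genes. The lists were made with earlier results of these data known, so this count is a description and does not set the partner genes apart from other genes. The lowest value among the 33 was -0.89, for Loxl3, against -5.82 for Efemp1. The 4 were Thbs1, Egfr, Itgb5 and Ltbp2. Thbs1, an adhesive matrix glycoprotein and activator of latent TGF-beta, was at 11.87 in Hi and 10.24 in Med. Egfr, a receptor that Efemp1 has been reported to bind, was at 9.48 in Hi and 8.23 in Med. Itgb5, which pairs with Itgav in an integrin that binds Fbln5, was at 11.41 in Hi and 10.27 in Med, and the microfibril-associated Ltbp2 was at 10.14 in Hi and 9.03 in Med.

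Against Ctrl, partner genes went both ways, and the counts turn on the expression filter, which a low level in Med and Hi makes a gene less likely to pass. Over all 62 measured, Med had 13 that were 2-fold higher and 18 lower (18.3% and 16.3% of all 19938 genes). Hi had 17 higher and 16 lower (17.5% and 15.4%). The median differences of the 62 were -0.72 in Med and -0.61 in Hi (all 19938 genes: -0.20 and -0.19). Of the 33 past the filter, Med had 13 that were 2-fold higher and 4 lower (34.9% and 8.7% of all filtered genes), and Hi had 17 higher and 4 lower (33.5% and 8.4%). The median differences of the 33 were 0.56 in Med and 1.04 in Hi, beside 0.42 and 0.39 over all filtered genes. Of the 20 measured binding partners, Med had 9 that were 2-fold higher and 7 lower (18.3% and 16.3% of all 19938 genes). Hi had 10 higher and 7 lower (17.5% and 15.4%). In each column all but 1 of the lower ones were below the filter. Fibronectin (Fn1) was at 8.69 in Ctrl, with 13.45 in Med and 13.32 in Hi, and the shared integrin subunit Itgb1 was at 6.94 in Ctrl, with 11.24 in Med and 10.90 in Hi. Ecm1, a matrix scaffold protein, was at 7.80 in Ctrl, with 11.32 in Med and 10.72 in Hi.

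Of the 19 measured elastic fibre and microfibril genes, Med had 3 that were 2-fold higher and 6 lower (18.3% and 16.3% of all 19938 genes). Hi had 5 higher and 5 lower (17.5% and 15.4%). The medians were -0.81 in Med and -0.74 in Hi. Among the 12 past the filter, Med had 3 that were 2-fold higher and 3 lower (34.9% and 8.7% of all filtered genes). Hi had 5 higher and 3 lower (33.5% and 8.4%). The medians of the 12 were 0.29 in Med and 0.25 in Hi. Ltbp1, which tethers latent TGF-beta to microfibrils, was at 8.34 in the Ctrl column, 11.10 in Med and 10.78 in Hi, and the lysyl oxidase relative Loxl3 was at 7.96 in the Ctrl column, 10.71 in Med and 9.83 in Hi. Mfap2, a small microfibril glycoprotein, was at 8.53 in Ctrl, with 6.73 in Med and 6.90 in Hi. Eln, Loxl1 and Lox were singled out after their values were seen, and they did not pass the filter. They do not stand for the list, of which 12 genes passed and members went both ways against Ctrl. Elastin (Eln) was at 7.65 in Ctrl and 6.84 in both Med and Hi. The cross-linking enzyme Loxl1 was at 7.64 in the Ctrl column, 6.82 in Med and 6.91 in Hi. Both were highest in Ctrl, where the background bound was also highest. Eln lay above each column's bound by 0.78 in the Ctrl column, 0.67 in Med and 0.64 in Hi. For Loxl1 the margins over the bound came to 0.78 (Ctrl), 0.64 (Med) and 0.71 (Hi). Lox, another cross-linking enzyme, was within the background range in every column (6.01 in Ctrl and 5.05 in both others). Timp3, the inhibitor that Efemp1 binds, was singled out likewise and was at 7.62 in Ctrl, with 5.61 in Med and 5.60 in Hi, so it was within the background range in the column where Efemp1 was high.

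Of 5 proteases tied to fibulins, Htra1, a secreted serine protease for which Efemp1 is a reported substrate, was at 7.44 in the Ctrl column, 11.20 in Med and 11.19 in Hi. It was thus as high in Hi, where Efemp1 was in the background range, as in Med. Adamts1 (7.06 in Ctrl, with 5.86 in Med and 5.76 in Hi) and Adamts12 (7.21 in Ctrl, with 6.15 in Med and 6.17 in Hi) were 2-fold lower than Ctrl in both columns and did not pass the filter. With centred columns Adamts1 in Med (-0.91) and Adamts12 in both columns (-0.76) were under 2-fold. Of 16 other matrix genes with calcium-binding EGF repeats, 7 passed the filter, and 1 of them, Thbs1, was 2-fold apart from Ctrl in Hi (2.49). Of all filtered genes, 33.5% were 2-fold higher in Hi than in Ctrl and 8.4% lower. In Med Thbs1 differed by 0.86, or 1.16 with centred columns and -0.24 with quantile normalization. Comp (7.61 in the Ctrl column, 6.31 in Med and 6.33 in Hi) and Scube3 (7.70 in the Ctrl column, 6.31 in Med and 6.37 in Hi), below the filter, were 2-fold lower in both, with Comp in Hi at -0.99 in centred columns.

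**Figure D3:**
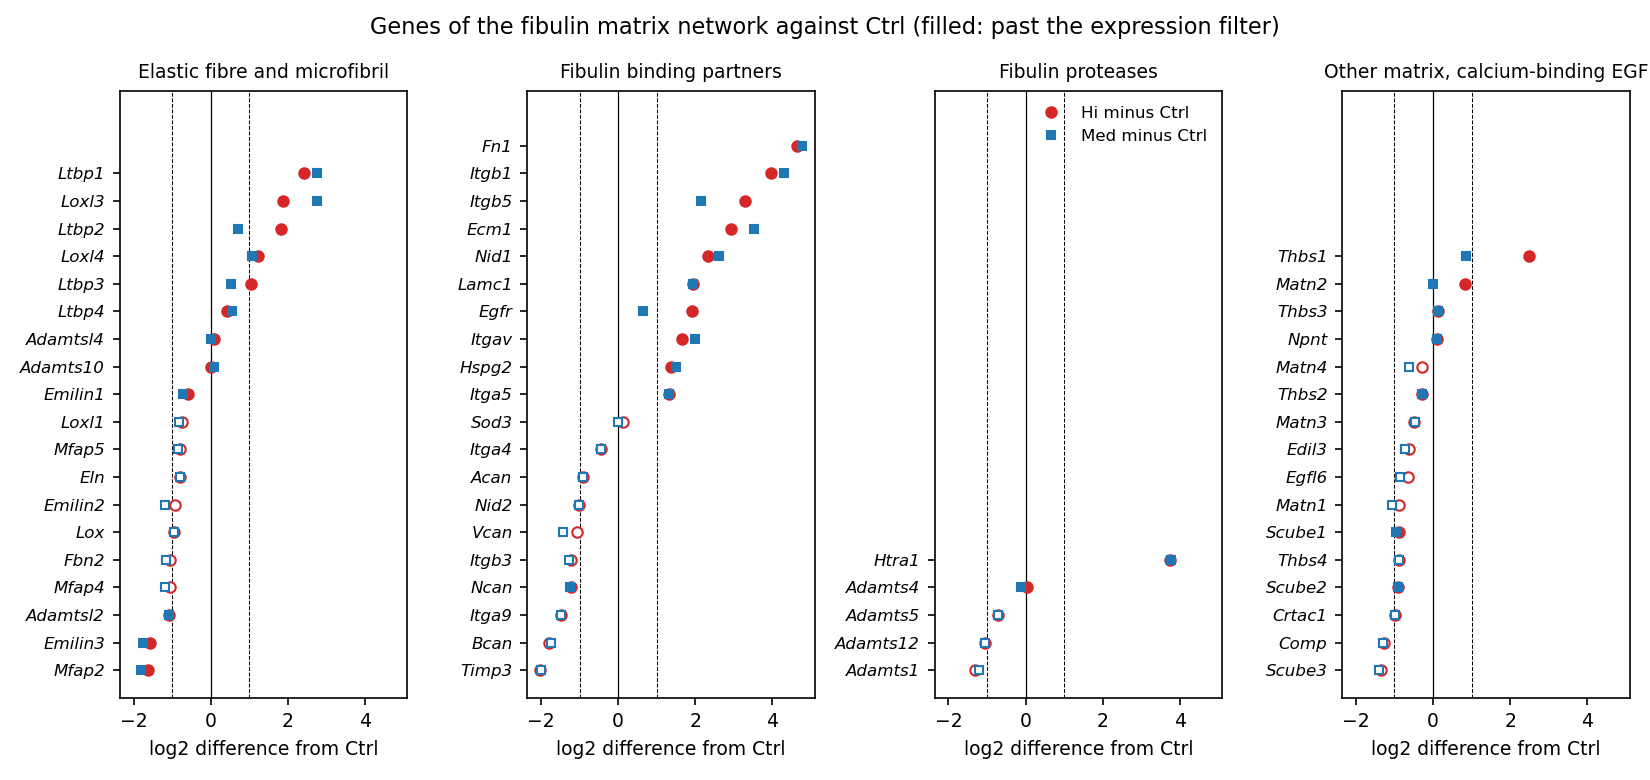
Log2 differences from Ctrl (horizontal axis) of the listed matrix genes in Hi (red circles) and Med (blue squares), 1 row per gene; dashed lines mark 2-fold and open symbols genes that did not pass the expression filter. Fn1 and Itgb1 lie furthest to the right among binding partners, and open symbols lie mostly left of 0.

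By the smallest distance over the 3 pairwise differences, the filtered genes whose pattern lay nearest to that of Efemp1 were Wnt1 (distance 3.59 on the log2 scale), Slc14a1 (4.14), Arhgdib (4.42), Gja1 (4.80) and Ly6e (4.92). The likeness rests on 3 columns, and a distance of 3.59 for the nearest gene is not close. The secreted signal Wnt1 was at 7.38 in Ctrl, with 9.63 in Med and 6.14 in Hi, and was the only one of the 5 within the background range in Hi. The urea transporter Slc14a1 was at 6.32 in the Ctrl column, 10.36 in Med and 7.82 in Hi, and Arhgdib at 6.62 in Ctrl, with 9.24 in Med and 6.97 in Hi. Gja1, a connexin of gap junctions, was at 7.36 in the Ctrl column, 11.55 in Med and 9.44 in Hi, and the surface protein Ly6e at 8.33 in Ctrl, with 13.27 in Med and 10.93 in Hi. A wider set of 81 filtered genes (0.813%) was at least 2-fold higher in Med than in Ctrl and 2-fold lower in Hi than in Med.

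Genes beside Efemp1 on chromosome 11 were listed in RefSeq order. On its left lay the microRNA precursors Mir216b, Mir216a and Mir217, all within the background range in every column, and the difference furthest from 0 was -0.12, for Mir217 in Med and Hi against Ctrl. On its right lay Pnpt1, a mitochondrial RNA-processing exonuclease, at 6.36 in Ctrl, with 10.48 in Med and 9.59 in Hi. Ppp4r3b, a phosphatase regulatory subunit, was at 7.46 in Ctrl and 9.23 in both Med and Hi, and Cfap36 was at 7.23 in Ctrl, with 7.59 in Med and Hi. Pnpt1 was lower in Hi than in Med by less than 2-fold (-0.89), and none of the 6 neighbours was 2-fold apart between Hi and Med.

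**Figure D4:**
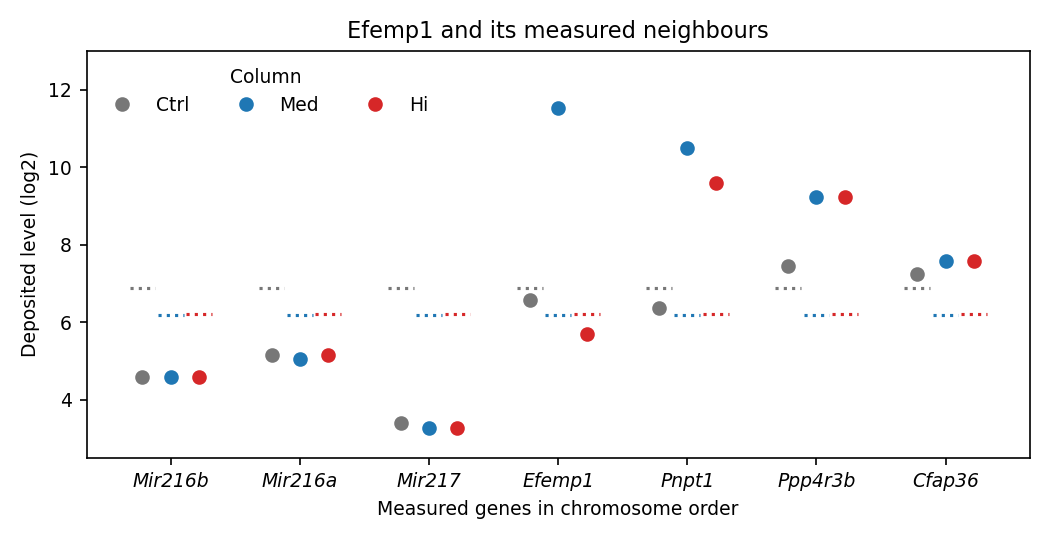
Deposited log2 level (vertical axis) of Efemp1 and the 3 measured genes on either side of it in chromosome order, 1 point per column, with dotted marks at the 95th percentile of receptor genes. Efemp1 is the gene that is high in Med and below the mark in Hi, whereas Pnpt1 and Ppp4r3b are above the mark in both.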

How the data were processed

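Total RNA (100 ng per sample, per the labels' protocols) was linearly amplified from random primers, labelled with biotin and put on an Affymetrix array. The authors deposited log2 values, normalized before deposit; the base was taken from their range of 2.13 to 14.8, and Affymetrix Expression Console and GCRMA are named, per the submitters' processing notes, with no role or version. The number of columns, 1 per group, limits the precision. Symbols came from GEO's platform annotation, updated by gene number to RefSeq (GRCm38.p6), which matched 21698 of 21789 single-gene probe sets. Another 1621 were listed under several genes and 12146 under none, and these named no gene. Probe sets of a gene were averaged. Genes with a mean at or above 7.13 (9969 of 19938) passed the filter. A log2 difference of 1 was counted as 2-fold. No test was run. The counting step was run on simulated data for Hi minus Med only, with planted shifts above the cutoff. That checks the counting and says nothing on the comparisons with Ctrl. Unmapped columns numbered 0.

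Members and lists were chosen with earlier results of these data known. Named were the members and hemicentins, per list up to 4 genes 2-fold apart with the largest Hi minus Med and up to 4 with the largest Hi minus Ctrl, the 5 nearest patterns and 3 neighbours on either side. Alternatives were centred columns, quantile normalization, the highest probe set per gene, no filter and, added after seeing the data, subtraction of the filtered median. Python 3.11.15, numpy 2.4.6, pandas 2.3.3 and matplotlib 3.10.9 were used.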

Additional observations from a re-analysis of the deposited data

How the results depend on the processing

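For Efemp1, Hi minus Med was -5.29 with quantile normalization, and with the filtered median subtracted Med minus Ctrl was 4.53 and Hi minus Ctrl -1.25. Its other values moved by less than the SD over receptor genes (0.09 for Hi minus Med, 0.36 for Med minus Ctrl and 0.35 for Hi minus Ctrl). Genes 2-fold lower than Ctrl, 867 in Med and 837 in Hi, numbered 469 and 416 with centred columns, 1875 and 1781 with quantile normalization, 3256 and 3077 without the filter, and 1477 and 1402 with the filtered median subtracted. Partner genes lower than Ctrl, 4 in each, numbered 2 in Med and 2 in Hi with centred columns, 18 in Med and 16 in Hi without the filter, and 7 in Med with the filtered median subtracted. Without the filter more genes enter the count, and the cause of the other changes was not tested. Genes 2-fold lower in Hi than in Med, 86, numbered 47 with quantile normalization. Of the 12 differences of the other 4 fibulins, the sign changed for 1 (Fbln1, Hi minus Med, -0.02 with quantile normalization against 0.01), and the 2-fold calls that changed are given with Fbln1 and Fbln2. Taking the highest probe set per gene could not change these calls, since each fibulin has 1 probe set. Of 96 differences of the other genes named, the side of 2-fold changed for 7 with centred columns, 3 with quantile normalization, 2 with the highest probe set and 8 with the filtered median subtracted, all of them against Ctrl and none between Hi and Med. No 2-fold difference changed its sign. No paired analysis was possible because each group has 1 column. Levels near the receptor genes limit every fold that involves Efemp1 in Ctrl or Hi.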

Other observations

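Efemp1 was 1 of 7 genes, over all 19938 without the filter, that lay within the background range in both Ctrl and Hi and were at least 2-fold above both in Med. This pattern was set after the values of Efemp1 were known. Next highest in Med was Il33, an alarmin cytokine, at 6.40 in the Ctrl column, 8.88 in Med and 5.69 in Hi. The inflammasome cytokine Il18 was at 4.42 in the Ctrl column, 7.01 in Med and 5.35 in Hi. The aldose mutarotase Galm was at 6.14 in Ctrl, with 7.22 in Med and 5.62 in Hi, and Zfp101 at 5.73 in the Ctrl column, 7.33 in Med and 6.17 in Hi. Hao1 was at 7.04 and Zfp931 at 6.21 in Med, where Efemp1 was at 11.52. The reverse pattern, within the background range in Ctrl and Med and 2-fold above both in Hi, was met by 5 genes and by none of the fibulins.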
